A study of Zea mays with 2 samples.

Results

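Endosperm peak gaps filled with embryo peaks are stretches of the maize chromosomes where MeDIP-seq found no endosperm methylation peak over at least 100 kb while the embryo carried 15 or more. They were chosen by the peak positions in both deposited lists. A gap ran from the end of an endosperm peak to the start of the next one on chromosomes 1 to 10, and an embryo peak counted when it lay wholly inside. Of 114567 gaps between successive endosperm peaks, 974 (0.85%) were at least 100 kb long and 361 (0.315%) also held at least 15 embryo peaks. These 361 are called filled gaps here, and the other 613 long gaps serve for comparison.

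Data came from the inbred line B73, with 1 embryo and 1 endosperm MeDIP library from ears collected 14 days after self-pollination. An anti-5-methylcytidine antibody pulled down sheared DNA, so a peak marks a methylated stretch and says nothing of single cytosines. On chromosomes 1 to 10 the lists held 351748 embryo and 114577 endosperm peaks. No replicate exists, the number of ears behind each library is not given in the sources used here, and a peak list offers no marker by which the tissue label could be checked. No test between the tissues was therefore made, and all values below are descriptions of these 2 libraries.

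Embryo and endosperm of a maize kernel both arise at fertilization, but the endosperm is a nutritive tissue that does not pass its genome on. In flowering plants, cytosine methylation silences transposable elements, which make up most of the maize genome. In Arabidopsis, DEMETER, a DNA glycosylase that removes methylated cytosines, acts in the central cell from which the endosperm descends, and endosperm DNA is known to be less methylated than embryo DNA in several plant species.

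Filled gaps were between 100219 and 272647 bp long, with a median of 126648 bp, and 272 of the 361 were shorter than 150 kb. They held 15 to 37 embryo peaks, with a median of 18. Most were therefore close to both limits of the rule. Together they covered 48.7 Mb, or 2.36% of the length of the chromosomes, and held 6797 embryo peaks, or 1.93% of the embryo list. In 263 gaps the number of embryo peaks was at most 20, in 31 it was at least 25 and in 5 at least 30.

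**Figure D1:**
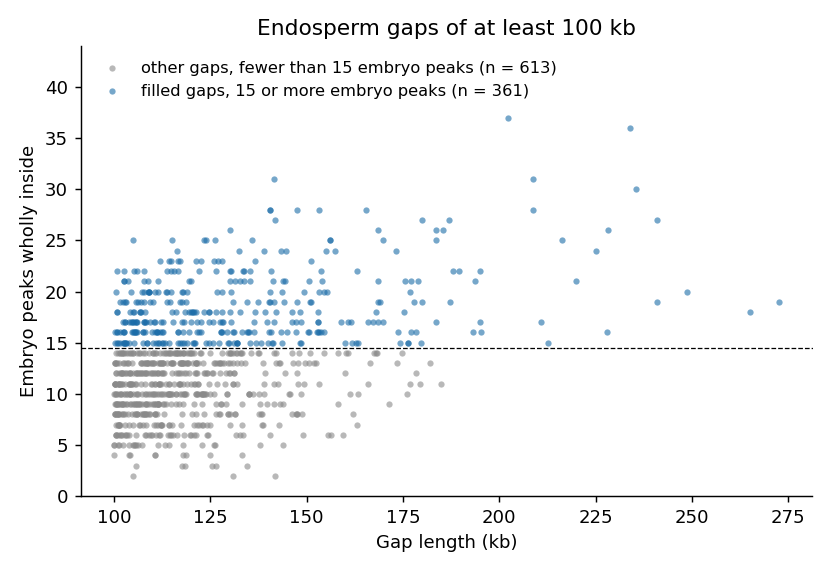
Length in kb (horizontal) against the number of embryo peaks wholly inside (vertical) for the 974 endosperm gaps of at least 100 kb, 1 point per gap, with the dashed line between 14 and 15 peaks. The 361 filled gaps (blue) crowd against the lower limits, and 17 of them are at least 200 kb long.

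Around the limits the values ran on without a break. Exactly 15 embryo peaks were found in 59 filled gaps, and 79 other long gaps held 14. The shortest filled gap, on chromosome 3, had 100219 bp and 16 embryo peaks, whereas a gap of 99985 bp on chromosome 10 with 19 embryo peaks fell just short. Gaps with at least 15 embryo peaks numbered 86 between 100 and 110 kb and 97 between 90 and 100 kb.

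The longest filled gap lay on chromosome 1 from 36277642 to 36550288 (1-based, on the chromosomes of the deposited lists, whose build is not named). Its 272647 bp held 19 embryo peaks, 6.97 per 100 kb, and included a stretch of 68362 bp without a peak of either tissue. It was thus one of the sparser filled gaps. The lowest density of all, 6.79 embryo peaks per 100 kb, belonged to the longest gap of chromosome 7, from 90225285 to 90490401, with 18 embryo peaks over 265117 bp. On chromosome 3 the longest gap, from 200139059 to 200379911, held 27 embryo peaks, 5 of them with a diffScore of at least 200. The diffScore is the authors' value for a peak, -10 times the log10 of the p-value given by MACS, and is at least 50 in both lists.

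On chromosome 6 the longest gap ran from 125173105 to 125408456, with 30 embryo peaks in 235352 bp but also a peak-free stretch of 68338 bp. Chromosome 5 had its longest gap from 199925785 to 200145717, with 21 embryo peaks and a peak-free stretch of 65366 bp. In these gaps the embryo peaks were unevenly spread. The longest gaps of chromosomes 4, 8, 9 and 10 were shorter, between 177777 and 179994 bp, with 21, 19, 19 and 27 embryo peaks. The one on chromosome 8, from 21710919 to 21888695, had a high median diffScore of 115.6.

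The largest number of embryo peaks, 37, was found on chromosome 2 from 58198880 to 58401135, a gap of 202256 bp. It was followed by the longest gap of the same chromosome, from 31559179 to 31792999, with 36 embryo peaks in 233821 bp. Chromosome 2 thus held the pair of gaps with most embryo peaks. In the first of them 15 embryo peaks had a diffScore of at least 100, but in the second only 6. A gap on chromosome 7 from 9656404 to 9865175 and another on chromosome 5 from 101798983 to 101940450 each held 31 embryo peaks, the latter within 141468 bp.

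By density the first place went to chromosome 5 from 83465914 to 83570749, where 25 embryo peaks in 104836 bp gave 23.8 per 100 kb. Next came the gap with 31 embryo peaks on chromosome 5, at 21.9, and a gap on chromosome 3 from 127215107 to 127315851, at 21.8. A pair of gaps on chromosome 2, from 229157207 to 229272309 and from 46082640 to 46185260, had 21.7 and 21.4 embryo peaks per 100 kb. These densities exceed the mean over chromosomes 1 to 10, which was 17.1 embryo peaks per 100 kb. Such gaps were the smaller part, however: 74 of the 361 filled gaps (20.5%) were denser than that mean. The mean also counts embryo peaks that overlap an endosperm peak, which no gap can hold.

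Over all filled gaps together the density was 14.0 embryo peaks per 100 kb. The other long gaps had 8.63 and all 974 long gaps 10.8 embryo peaks per 100 kb. The filled gaps were thus fuller than other long endosperm gaps, which the rule itself requires. Their density was below that of the chromosomes as a whole, but those 2 values count unlike sets of peaks. Of the 351748 embryo peaks of the chromosomes, 83388 overlapped an endosperm peak, a class that the rule bars from gaps. The density and coverage of the chromosomes without that class were not computed. The values for whole chromosomes therefore do not show whether the filled gaps were fuller or sparser in embryo peaks without an endosperm partner. Embryo peaks covered 3.90% of the filled gaps, 2.26% of the other long gaps and 5.43% of the chromosomes. Within single filled gaps the covered share ran from 1.46% to 8.04%. The longest stretch without any peak had a median of 24202 bp per gap, and ran from 8950 to 68362 bp.

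Inside a gap the embryo peaks were spread evenly from end to end when all gaps were added up. With each gap divided into 5 equal parts, these held 1358, 1344, 1334, 1372 and 1389 embryo peaks. No part held less than 19.6% or more than 20.4% of them. The median diffScore of the 5 parts lay between 77.6 and 80.6, and the median length between 243 and 252 bp.

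Just outside a filled gap the peak numbers were those of the chromosomes in general. In the 100 kb on each side, beyond the bounding endosperm peaks, there were on average 17.4 embryo and 5.66 endosperm peaks per 100 kb, against 17.1 and 5.57 over chromosomes 1 to 10. The ratio of embryo to endosperm peaks there was 3.08, and 3.07 over the chromosomes. With both sides added together, none of the 361 filled gaps had flanks with 0 endosperm peaks. A single side was empty by construction at the 4 filled gaps that adjoin another filled gap. Single sides of the other filled gaps were not counted. At the other long gaps the flanks held 16.2 embryo and 5.25 endosperm peaks per 100 kb. On average, the low endosperm peak number was therefore not seen beyond the edges of the filled gaps on this scale.

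**Figure D2:**
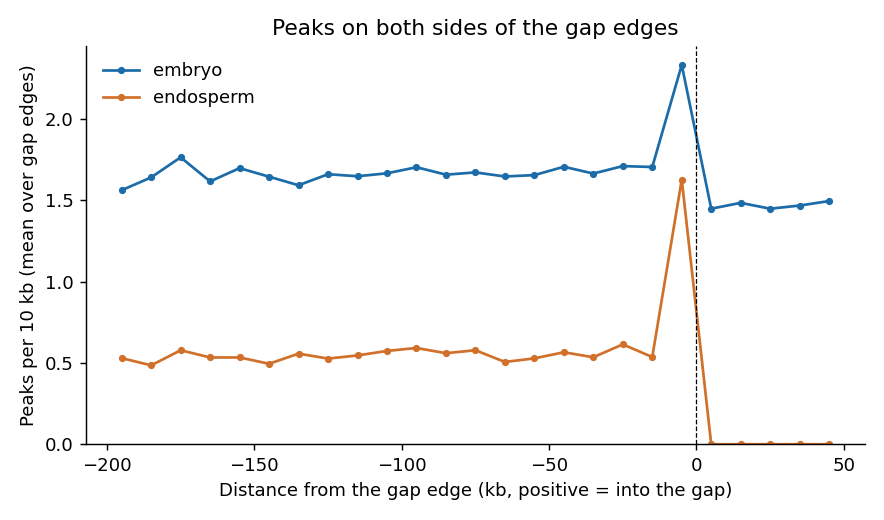
Mean number of embryo (blue) and endosperm (orange) peaks per 10 kb against the distance in kb from the edge of a filled gap, over 722 edges, with positive distances inside the gap. Endosperm peaks lie between 0.48 and 0.61 per 10 kb out to 200 kb, apart from the 10 kb bin that holds the bounding peak itself, and are 0 inside by the rule, whereas embryo peaks stay at 1.45 to 1.49 inside.

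The 10 kb next to the edge on the outer side held 1.63 endosperm and 2.33 embryo peaks. This bin holds the bounding endosperm peak by construction, and many of these peaks lie on an embryo peak. Inside the gap the first 10 kb held 1.45 embryo peaks and the stretch from 40 to 50 kb held 1.49. In the bin from 10 to 20 kb outside the embryo number was 1.70, which also counts embryo peaks that overlap an endosperm peak.

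The 361 filled gaps were bounded by 720 endosperm peaks. These had a median diffScore of 63.9 (95% interval 62.7 to 65.7), against 67.3 (67.2 to 67.5) for all other endosperm peaks. They were also shorter, with a median length of 194 bp (188 to 200) against 212 bp (212 to 213). An embryo peak overlapped 504 of them (70.0%, 95% Wilson interval 66.6 to 73.2), and 74.3% (74.0 to 74.5) of the others. A diffScore under 60 was found in 38.1% (34.6 to 41.7) of the bounding peaks and in 34.4% (34.1 to 34.7) of the others. Intervals here and below cover counting error only, and peaks of 1 library are not replicates. Both bounding peaks lay on an embryo peak in 177 gaps, 1 of them in 152 gaps, and neither in 32.

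The embryo peaks inside were compared with embryo peaks of chromosomes 1 to 10 that lay outside all long gaps and overlapped no endosperm peak. Peaks inside a gap lack an endosperm partner by the rule, so this is the like class elsewhere. The median diffScore was 79.1 (95% interval 78.1 to 80.1) for the 6797 peaks in filled gaps and 79.7 (79.5 to 79.8) for the 255329 peaks elsewhere. The intervals overlap. In the other long gaps it was 79.8 (78.5 to 81.1). The 83388 embryo peaks that overlapped an endosperm peak had a far higher median of 138.9.

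A diffScore of at least 100 was reached by 2265 embryo peaks in filled gaps, or 33.3% (95% Wilson interval 32.2 to 34.5), against 41.4% of all embryo peaks. Elsewhere without an endosperm partner it was 33.1% (32.9 to 33.3), and among peaks that overlapped an endosperm peak 68.1%. A diffScore of at least 200 was reached by 464 peaks in filled gaps, or 6.83% (6.25 to 7.45), against 12.2% of all embryo peaks and 6.34% (6.25 to 6.44) of the peaks elsewhere. At both minimums the interval of the filled gaps contains the share of the like class elsewhere. By chromosome, the median diffScore was lower in the gaps than elsewhere on 6 chromosomes and higher on 4.

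**Figure D3:**
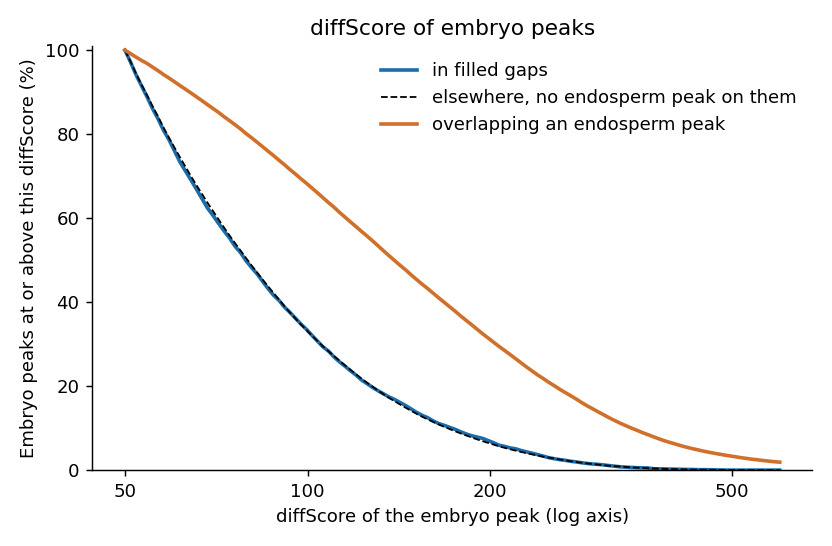
Percentage of embryo peaks at or above a given diffScore (horizontal, log axis) for peaks in filled gaps (blue, 6797 peaks), peaks elsewhere without an endosperm peak on them (dashed, 255329) and peaks overlapping an endosperm peak (orange, 83388). The first pair of curves lie on each other, with 33.3% and 33.1% at a diffScore of 100, whereas the third is at 68.1% there.

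Over chromosomes 1 to 10, the share of embryo peaks that overlapped an endosperm peak was 12.9% at a diffScore from 50 to 100, 30.04% from 100 to 200 and 60.3% (95% Wilson interval 59.9 to 60.8) at 200 or more. The filled gaps held 4532, 1801 and 464 embryo peaks of these classes, none of which overlaps an endosperm peak by the rule. A peak of the highest class without a partner is therefore the less usual case on the chromosomes. Of the filled gaps, 115 held no embryo peak of that class and 4 held 5 of them.

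Embryo peaks in filled gaps were somewhat shorter than the like peaks elsewhere. Their median length was 247 bp (95% interval 244 to 249) against 258 bp (258 to 259), and 231.5 bp (229 to 234) in the other long gaps. The median was lower in the gaps on 9 chromosomes and equal on chromosome 2, at 253 bp. Lengths of 500 bp or more made up 6.16% (5.62 to 6.76) of the peaks in filled gaps and 7.70% (7.60 to 7.81) of those elsewhere. Peaks of like diffScore differed in the same direction. From 50 to 75 the medians were 202 and 212 bp, from 75 to 100 they were 251 and 259 bp, from 100 to 200 they were 319 and 329 bp, and at 200 or more 469 and 497 bp. The cause of this difference was not tested.

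Single gaps varied more than these medians. The median diffScore of a filled gap ran from 57.7 to 151.9, and 30 gaps had a median of at least 100. With 15 to 37 peaks per gap, such a median rests on few values. The highest, 151.9, belonged to a gap on chromosome 3 from 41673678 to 41804100, with 17 embryo peaks. The next ones were 142.2 on chromosome 1 from 88829913 to 88940722 and 134.9 on chromosome 8 from 143330806 to 143436068. Gaps on chromosome 4 from 166847012 to 166978884 and on chromosome 1 from 62693128 to 62825204 followed, with 127.7 and 124.6.

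At least 15 embryo peaks with a diffScore of 100 or more were found in 3 gaps, selected on that value. The gap on chromosome 6 from 19131367 to 19304527 had 17 such peaks among its 24, and 5 of them reached 200. On chromosome 3 from 91245640 to 91393273 there were 15 among 28, and the third was the gap with 37 embryo peaks on chromosome 2. At the other end, 8 filled gaps held 1 embryo peak of that score.

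The strongest embryo peak in any filled gap had a diffScore of 792.0. It lay on chromosome 7 from 5040166 to 5041074, was 909 bp long, and the closest endosperm peaks were 86879 bp to its left and 65146 bp to its right. Its gap held 17 embryo peaks with a median diffScore of 73.4, and 4 of them reached 200. The second peak, with 622.5 on chromosome 4 from 49447474 to 49448238, lay 5429 bp from the closest endosperm peak. No other embryo peak in the filled gaps reached a diffScore of 500, that is 2 of 6797 did (0.029%, Wilson interval 0.008 to 0.107). Among all embryo peaks the share was 0.83% (2912 of 351748). Among peaks elsewhere without an endosperm partner it was 0.046% (117 of 255329), which lies within the interval of the filled gaps. The longest embryo peak in the filled gaps had 1456 bp, on chromosome 9 from 43264570 to 43266025, with a diffScore of 334.5.

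Filled gaps were found on all 10 chromosomes. Chromosome 1, the longest, had 63 and chromosome 10 had 23. Chromosome length was taken as the end of its last peak of either tissue. The number per 100 Mb ran from 14.2 on chromosome 6 to 21.1 on chromosome 9. Filled gaps took between 1.88% of chromosome 6 and 2.92% of chromosome 1.

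With each chromosome divided into 10 equal parts, the number of filled gaps was lowest in the third part, with 25, and highest in the eighth and the last, with 49 each. Left of the chromosome midpoints there were 153 and right of them 208 filled gaps (57.6%, 95% Wilson interval 52.5 to 62.6). The right side held more on 9 chromosomes, and chromosome 1 was the exception with 33 and 30. The other long gaps were placed in a like way, with 59.2% on the right side. With each chromosome cut into 3 equal parts, the central parts held 99 filled gaps (27.4%, 23.1 to 32.2) and 24.0% of the other long gaps. Embryo and endosperm peaks themselves were densest there, at 17.9 and 5.73 per 100 kb, and sparsest in the right parts, at 16.3 and 5.32. Among gaps with at least 20 embryo peaks, the central parts held 35.2%.

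**Figure D4:**
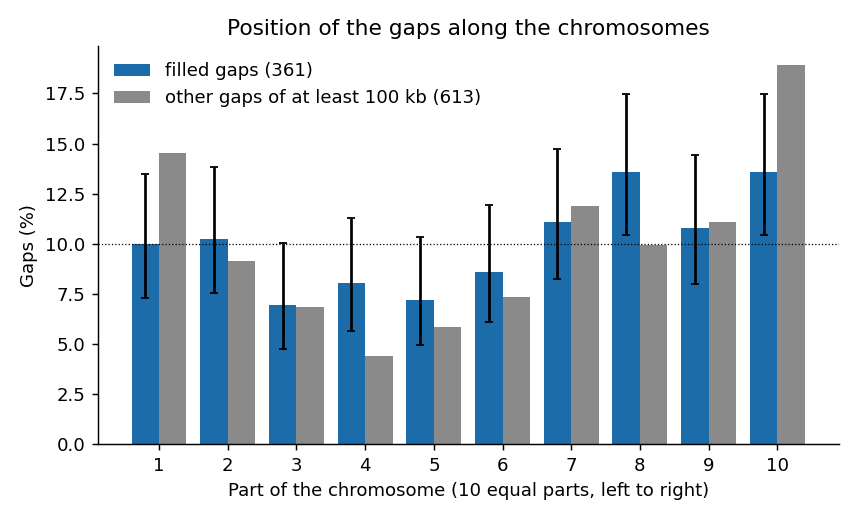
Percentage of the 361 filled gaps (blue) and of the 613 other long gaps (grey) in each of 10 equal parts of the chromosome, all 10 chromosomes together, with 95% Wilson intervals for the filled gaps and a dotted line at 10%. Filled gaps range from 6.93% in the third part to 13.6% in the eighth and the last, and other long gaps reach 18.9% in the last.

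Few filled gaps lay side by side, but filled gaps were only 0.315% of all gaps between successive endosperm peaks. The number of neighbours to be expected at that share was not computed. A common bounding endosperm peak joined 4 of them into pairs. On chromosome 5 the gaps from 216851562 to 216954529 and from 216954658 to 217061473 were parted by 1 endosperm peak of 128 bp with a diffScore of 56.9, and they held 19 and 18 embryo peaks. On chromosome 10 the gaps from 52806118 to 52917404 and from 52917635 to 53019998 were parted by a peak of 230 bp with a diffScore of 61.9. Both parting peaks were below the median diffScore of all bounding peaks, 63.9, but as many bounding peaks lie below that median as above it. A diffScore under 60, as in the parting peak on chromosome 5, was found in 38.1% of the bounding peaks and 34.4% of the others.

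Another filled gap lay within 100 kb of 10 gaps and within 1 Mb of 105 (29.1%). The median distance to the nearest one was 2.28 Mb, and the mean length of chromosome per filled gap was 5.70 Mb. In 201 whole windows of 10 Mb the number of filled gaps ran from 0 to 5, with a mean of 1.74 and a variance of 1.63. Of these windows, 34 held none. The last part of each chromosome, shorter than a window, was left out with its gaps, among them the pair on chromosome 5.

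The number of filled gaps was set beside the number that random labels would give. All peaks of a chromosome were ordered, and as many as there are endosperm peaks were labelled endosperm at random. The mean over all labellings was computed exactly. Endosperm peaks are 24.6% of the 466325 peaks. This gave 419.1 filled gaps, and the observed 361 are 0.861 times that number. On each of the 10 chromosomes the observed number was below the expected one, from 0.719 times on chromosome 2 (35 against 48.7) to 0.987 times on chromosome 9 (33 against 33.4).

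The comparison changed direction with what was labelled. In a list of peaks, a locus methylated in both tissues stands as an embryo and an endosperm peak on top of each other, and random labels may call both embryo. When overlapping peaks were joined into 379725 methylation regions, 111365 of them (29.3%) with an endosperm peak, and the labels were drawn among regions, 256.7 filled gaps were expected. The observed 361 are 1.41 times that number. On all 10 chromosomes the observed number was above this expectation, from 1.21 times on chromosome 10 (23 against 19.0) to 1.60 times on chromosome 9 (33 against 20.6). Neither value is a test, since peaks differ in length and score and both expectations leave that out.

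**Figure D5:**
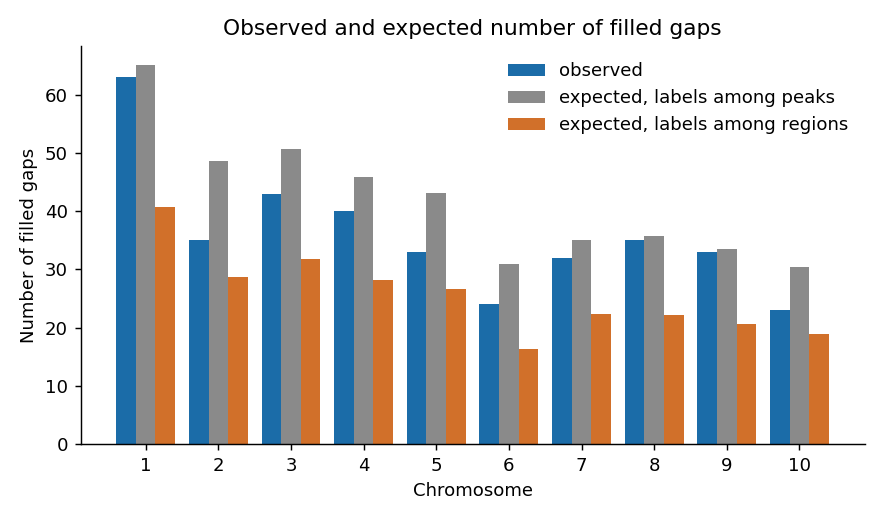
Number of filled gaps per chromosome as observed (blue), and the number expected with endosperm labels drawn at random among peaks (grey) and among methylation regions (orange). Each blue bar stands between the grey and the orange one, with 361 observed against 419.1 and 256.7 in total.

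Other limits of length and number gave the same picture for regions and a mixed one for peaks. Counting the main limits too, the observed number was above the region expectation in 8 of 8 settings and above the peak expectation in 4. The settings share many of their gaps and are not independent. For gaps of at least 100 kb with any number of embryo peaks, 974 were observed and 817.7 expected from labels among peaks. In terms of regions the numbers were 970 and 738.9. With at least 15 embryo peaks and any length, 810 were observed, against 1520 from peaks and 611.5 from regions. At lengths of at least 200 kb with 15 or more embryo peaks, 17 were observed, against 10.5 from peaks and 7.78 from regions. At 150 kb with 15 or more embryo peaks, 89 were observed, against 72.3 and 51.1. Long gaps were thus more numerous than under either labelling at these limits. With 20 or more embryo peaks over at least 100 kb, 125 were observed, fewer than the 192.9 from peaks and more than the 79.6 from regions.

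Genes could be assigned for 4 filled gaps near the start of chromosome 1. Gene regions were taken as names from the study's list of embryo peaks in gene regions, of which the rows used here end at position 22623587. Of the 72 embryo peaks in these 4 gaps, 16 lay in a region of 19 annotated gene models, where TTR stands for the transcriptional termination region. The remaining 56 were assigned to none. The share was 22.2% (95% Wilson interval 14.2 to 33.1), beside 24.0% of all 3613 embryo peaks up to that position, so it was near the background. RefSeq's list for the B73 reference NAM-5.0, used for names alone, gave a symbol for 4 of the 19.

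The gap from 21410789 to 21528473 held 20 embryo peaks, of which 10 lay in regions of 10 gene models. In GRMZM2G004259 (LOC100282391) the embryo had peaks in the promoter from 21455548 to 21455800 with a diffScore of 206.2, in exons and introns from 21457033 to 21457426 with 200.7, and in the TTR from 21462416 to 21462613 with 65.7. These embryo peaks were separate, and the one in exons and introns was also assigned to the gene models AC187904.3_FGT004, AC187904.3_FGT005 and AC187904.3_FGT007. The nearest endosperm peaks were those that bound the gap. In GRMZM2G307084, which the study's annotation likens to a hypothetical protein of sorghum, embryo peaks lay in the promoter, an intron, the coding sequence and the TTR, with diffScores from 69.8 to 133.0. GRMZM2G307091 had embryo peaks in its promoter and TTR, and the TTR of GRMZM2G004523 (LOC100285938) held 1 with a diffScore of 80.2.

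The other three gaps held fewer gene-linked peaks. In the gap from 20387817 to 20523193, with 21 embryo peaks and a median diffScore of 88.6, 2 peaks lay in gene regions. One of them, from 20420915 to 20421189, reached regions of 5 closely placed gene models, among them the promoter of GRMZM2G134367 (umc1467). The gap from 9570252 to 9705424 had 3 such peaks among 16, in the promoter of GRMZM2G415390 and the TTRs of GRMZM2G415343 and GRMZM2G571527. In the gap from 3210007 to 3370094 it was 1 of 15, in the promoter of GRMZM2G126199 (LOC100285880) with a diffScore of 89.95. Gene-linked peaks therefore ranged from 1 of 15 to 10 of 20 among these gaps, and all other filled gaps were not analysed for genes.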

How the data were processed

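Per the paper's methods, the authors mapped cleaned reads with Bowtie2 2.0.5 at its defaults, and called peaks with MACS; 1 list per library was deposited. The deposited lists give position and diffScore, a score derived from the p-value of each peak. They hold no read numbers, and those in the study's supplementary lists were not used, so no depth is given behind a peak. The build, an input library and whether libraries were called alone are not given in the sources used here.

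Gaps, embryo peaks wholly inside and random-label expectations (exact sums over pairs of peaks, without resampling) were computed with Python 3.11.15, numpy 2.4.6, pandas 2.3.3 and scipy 1.17.1, and figures with matplotlib 3.10.9. The code was tested on simulated data and against bedtools 2.31.1, and 22 of 22 checks gave the known value. Intervals are 95%, Wilson for shares and from order statistics for medians. With 1 library per tissue there was no test. The members and lists were chosen with earlier results of these data known. Gaps named were the longest of each chromosome and the 5 with most embryo peaks, highest density and highest median diffScore. Gaps and peaks named for their strong peaks, length or neighbours were chosen after their values were seen. Named genes were those assigned to embryo peaks of a filled gap. Alternatives were other limits of length, number and diffScore, joined peaks, peaks touching a gap, regions in place of peaks, and inner peaks. No genome was used, so no sequence is shown.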

Additional observations from a re-analysis of the deposited data

How the results depend on the processing

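The number of filled gaps, 361, followed its limits: it was 89 at 150 kb, 17 at 200 kb, 738 with at least 10 embryo peaks and 125 with at least 20. It was 3 when only embryo peaks with a diffScore of at least 100 counted, 6676 when only endosperm peaks of that score bounded a gap, and 235 with embryo peaks within 500 bp joined, since each change removes or adds peaks by construction. Labels among regions moved the expected number from 419.1 to 256.7. The median peak length, 247 bp, was 254 bp in gaps with at least 20 embryo peaks, and the central share, 27.4%, was 35.2% there; the cause was not tested. The density, 14.0 embryo peaks per 100 kb, was 12.01 with peaks joined and 11.3 at 150 kb. Of neighbouring gaps, 4 with the main definition, there were 10 within 100 kb and 0 at 150 kb. The other 8 of 22 alternatives stayed within 1.5 times or within the interval. The median diffScore and its share of at least 100 moved least. No paired analysis was possible because neither tissue has a second library. Single gaps rest on the absence of any listed endosperm peak, and the lists do not show reads below the limit of diffScore 50.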

Other observations

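The reverse case was rare. Between successive embryo peaks there were 4 gaps of at least 100 kb, the longest of 124021 bp, and none held more than 1 endosperm peak. At any length, the largest number of whole endosperm peaks between neighbouring embryo peaks was 6. There were about 3.07 embryo peaks for each endosperm peak, and the number of embryo gaps to be expected from that was not computed. Unplaced sequences, outside the rule, held 0 filled gaps, and their longest endosperm gap was 105523 bp.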
